A study of Arabidopsis thaliana with 21 samples.

Results

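The transcriptome of At1++, the stronger of the pair of Arabidopsis thaliana lines that over-express AtIPCS1, was compared with that of the Col-0 wild type. The 6 libraries involved, 3 of At1++ and 3 of Col-0, were taken by their labels from a series of 21 libraries over 7 groups, in which AtIPCS1, AtIPCS2 or AtIPCS3 was over-expressed in 6 lines. Both groups were untreated whole seedlings, 10 days old, raised on Murashige and Skoog agar at 20 °C with 16 h of light and 8 h of dark. Col-0 carried no transgene, and At1++ was 1 transformed line in the Col-0 background, obtained by floral dip with the full-length AtIPCS1 cDNA in the pK7WG2 vector, whose viral promoter is active in most tissues. At1+, the weaker AtIPCS1 line made with the same construct, was used where the question was whether At1++ differed from a line of the same kind. The study describes the libraries of a line as technical triplicates, so the p-values below measure the spread between these libraries and not that between independent transformants or growth batches. An effect of the transgene and an effect of where it inserted cannot be told apart with 1 line.

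Inositol phosphorylceramide synthase moves phosphoinositol from phosphatidylinositol to ceramide. Its product is the base of the glycosyl inositol phosphorylceramides, the main complex sphingolipids of plant plasma membranes, and its substrate ceramide is a known trigger of programmed cell death and of salicylic acid accumulation in Arabidopsis. The 3 Arabidopsis isoforms are encoded by AtIPCS1, AtIPCS2 and AtIPCS3. In seedlings of this age the embryo programme of storage proteins and oil is normally off, and defence genes controlled by salicylic acid and by jasmonate with ethylene sit at a basal level that depends on growth conditions.

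Of 22222 genes tested, 903 (4.06%) were called higher and 1116 (5.02%) lower in At1++ than in Col-0, a call being a log2 fold change of at least 1 in size with an adjusted p below 0.05 in limma. Values are read counts normalized by the submitters with size factors, and fold changes are on the log2(value + 1) scale, which understates the change of low genes. In 1981 of the 2019 genes called, the At1++ libraries did not overlap those of Col-0, against 25.4% of all genes tested with At1++ entirely above and 25.1% with it entirely below. The shares of 4.06% and 5.02% are the ones to set beside each count of list members called against Col-0 below. Of the called genes 82 rose and 54 fell by 4 or more on the log2 scale. The libraries held 14592430 to 17210244 reads assigned to genes, and none of 6 reference genes, ACT2 and UBQ10 among them, was called by limma, edgeR or DESeq2, with 2 of them lower at an unadjusted p below 0.05. Replicate 1 of At1++ stood apart from the other 2 at the low end. It was the highest of the 3 for 665 of the 1116 genes called lower (59.6%), against 34.8% of all genes tested, and for 42 of the 54 that fell by 4 or more. Without it 1137 genes were lower and 855 higher, and 1037 and 791 of these were among the original calls. What sets this library apart was not tested.

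**Figure D1:**
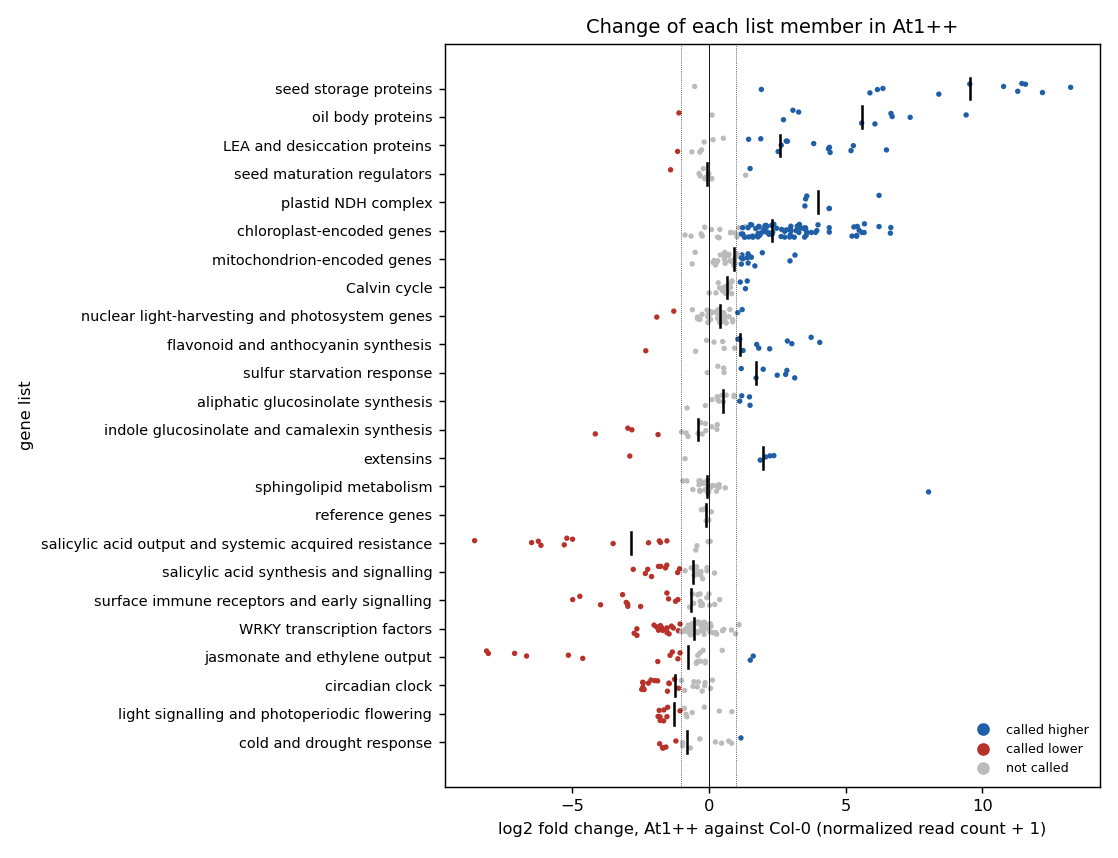
Change of each member of 24 gene lists in At1++ against Col-0, on the log2(normalized read count + 1) scale; each point is a gene, coloured by its call, the black bar is the list's median and the dotted lines mark a change of 1 in size. Seed storage proteins have a median of 9.54, salicylic acid output genes one of -2.84 and sphingolipid genes one of -0.06.

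The transgene was read out first. AtIPCS1 (AT3G54020) was at 175, 176 and 164 normalized counts in the Col-0 libraries and at 42086, 43930.5 and 50094 in those of At1++. The log2 fold change was 8.03 ± 0.12 (SE), with an adjusted p of 2.5e-25 in limma, and the groups were far apart. At1+ held 18204, 16474 and 18501, so At1++ was above it by 1.35 on the log2 scale, with an adjusted p of 7.1e-10. The counts do not separate transcripts of the transgene from those of the native gene. AtIPCS2 was at 834, 789 and 845 in Col-0 and at 963, 741 and 703 in At1++, overlapping ranges. AtIPCS3 was at 58.4, 52.3 and 62.3 in Col-0, and at 318, 47.6 and 44.7 in At1++. Its first value, in the library that stood apart above, was the single one outside the Col-0 range on the high side, and the log2 fold change of 0.61 turned to -0.31 without that library. Neither gene was called by limma, while AtIPCS3 was called higher by edgeR (1.25, adjusted p 0.027) and by limma without replicate 3 of At1++ (1.09, adjusted p 0.037).

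Most of the rest of sphingolipid metabolism moved little. Of 30 tested genes of the pathway, AtIPCS1 was the 1 called by limma and DESeq2 (edgeR called AtIPCS3 too, making 2). At an unadjusted p below 0.05 in limma 11 were lower without reaching the fold minimum, and 5 were higher, AtIPCS1 among them. The lowest log2 fold change was -0.94, and the list's median was -0.06, beside -0.00 over all genes tested. LCB2, a subunit of the serine palmitoyltransferase that opens the pathway, was at 1234, 1214 and 1184 in Col-0 and at 1197, 1187 and 1184 in At1++, on the same level. FAH1, a fatty acid hydroxylase that acts on ceramide, went from 1247, 1085 and 1091 to 1447, 1438 and 1559.5, a log2 difference of 0.38 that did not reach the fold minimum. SLD1, a desaturase of the long-chain base, had a log2 difference of -0.58 and also stayed under it.

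Genes of the late embryo gave the greatest rises in the comparison. Of 13 tested seed storage genes 12 rose (92.3%, against 4.06% of all genes), with a median log2 fold change of 9.54, and 8.05 when genes at the counting floor in Col-0 are set to their lower bound. CRU3 (AT4G28520), which encodes a cruciferin, the 12S globulin stored in protein bodies, had 0.927, 0 and 0 normalized counts in Col-0 and 11409, 11677 and 12679 in At1++. Against a floor of 3 reads per library it was at least 4252-fold higher. CRA1, another cruciferin gene, went from 2.78, 0.935 and 1.76 to 7526, 7342 and 7855, at least 2701-fold. The third, CRU2, was at 0 in every Col-0 library and at 664, 753 and 820.1 in At1++, at least 266-fold higher. The 3 At1++ libraries agreed within a narrow range for each cruciferin, and no At1++ value came near those of Col-0.

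The 2S albumins, small sulfur-rich storage proteins encoded by SESA1 to SESA5, rose too. SESA3 was at 0 in Col-0 and at 4205, 4680.1 and 5234 in At1++, at least 1679-fold higher. For SESA5 the levels were 0, 0 and 0.878 and 3506, 3634 and 4172, and for SESA2 they were 0 throughout Col-0 and 2315, 2414 and 2813 in At1++. SESA1 had 0, 0 and 1.76 and 2189.9, 2459.5 and 2743. These genes lie close together on chromosome 4, apart from SESA5, and are similar in sequence, so how reads were split among SESA1 to SESA4 is uncertain, while their joint rise does not turn on that. AT2G18540, a cupin family gene, was the 1 storage list member without a call, at 29.7, 31.8 and 28.1 in Col-0 and 17.3, 34.5 and 14.6 in At1++.

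The promoters of the leading members are shown for their matches to a pair of elements known from seed gene promoters. The windows are the 250 bases before the RefSeq gene start in TAIR10.1, at chr4:14087306-14087555 for CRU3, chr4:13611546-13611795 for SESA3 and chr4:12900180-12900429 for OLEO1, all on the plus strand. They are written 5′ to 3′ in lower case, with matches on either strand to the RY core CATGCA and to the abscisic acid element core ACGTG in capitals.
CRU3: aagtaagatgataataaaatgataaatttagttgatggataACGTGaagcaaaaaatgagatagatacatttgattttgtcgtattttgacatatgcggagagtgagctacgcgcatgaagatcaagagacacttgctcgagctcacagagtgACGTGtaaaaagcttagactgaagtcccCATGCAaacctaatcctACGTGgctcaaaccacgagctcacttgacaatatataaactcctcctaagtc
SESA3: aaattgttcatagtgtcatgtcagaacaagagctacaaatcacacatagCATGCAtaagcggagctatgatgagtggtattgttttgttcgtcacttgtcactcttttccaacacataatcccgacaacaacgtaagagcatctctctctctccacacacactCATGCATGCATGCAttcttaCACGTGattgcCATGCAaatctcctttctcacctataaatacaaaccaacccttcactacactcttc
OLEO1: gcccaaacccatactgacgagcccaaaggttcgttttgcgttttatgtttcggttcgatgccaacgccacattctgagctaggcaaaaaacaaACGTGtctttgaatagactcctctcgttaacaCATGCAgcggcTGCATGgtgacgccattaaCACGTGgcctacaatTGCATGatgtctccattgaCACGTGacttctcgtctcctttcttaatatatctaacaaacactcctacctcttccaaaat
The RY core is the element read by the B3 factors ABI3, FUS3 and LEC2, and ACGTG is read by bZIP factors of the abscisic acid response. A CATGCA was present in 11 of 13 windows of storage genes (84.6%), in 10 of 11 of oil body genes (90.9%) and in 5 of 20 of LEA genes (25%), against 8.05% of the 22092 windows of nuclear genes tested. ACGTG was present in 9 of 13 (69.2%), 7 of 11 (63.6%) and 16 of 20 (80%), against 23.9%. The latter is not particular to seed genes, since 17 of 25 clock gene windows (68%) held it too. In a CACGTG the motif matches on both strands and the matches overlap. These are matches of letters and not measured binding.

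**Figure D2:**
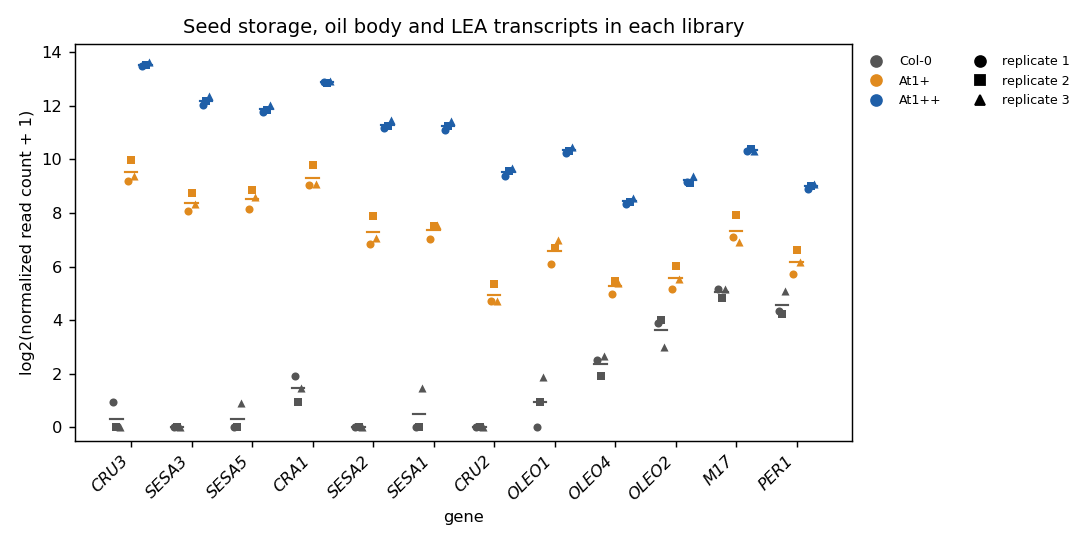
Normalized read counts of 12 seed storage, oil body and LEA genes in each library, as log2(count + 1); points are libraries, with a shape for each replicate, and bars are means of 3. Col-0 lies at or near 0 for most genes, At1+ in between, and At1++ on top, as for CRU3 with 11409, 11677 and 12679 normalized counts in At1++.

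Oil body genes followed. Of 11 tested 9 rose and 1 fell, with a median log2 fold change of 5.59. OLEO1, an oleosin that coats the oil droplet, was at 0, 0.935 and 2.63 in Col-0 and 1218, 1259 and 1425 in At1++, at least 464-fold higher. OLEO2 went from 13.9, 14.95 and 7.02 to 573, 558 and 663, a log2 fold change of 5.59 ± 0.25 with an adjusted p of 2.5e-15. OLEO4 went from 4.64, 2.804 and 5.27 to 318, 341 and 375, with 6.07. Here the Col-0 libraries held a measurable level, so these folds are not bounds. CLO1, the seed caleosin, was at 0.927, 1.87 and 0.878 and 223, 207 and 229, while CLO3, a caleosin of leaves under stress, fell from 25.96, 35.5 and 31.6 to 13.8, 15.6 and 12.6, a call that was lost without Col-0 replicate 2. The steroleosin gene HSD2 was not called, with a log2 fold change of 0.12.

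Late embryogenesis abundant (LEA) proteins and other desiccation proteins moved less evenly. Of 20 tested, 13 rose and 1 fell, with a median of 2.59. M17 went from 35.2, 27.1 and 35.1 in Col-0 to 1274, 1335 and 1283 in At1++, a log2 fold change of 5.29 ± 0.17. PER1, the seed 1-Cys peroxiredoxin, went from 19.5, 17.76 and 33.4 to 475, 516 and 544, with 4.44. EM6, an abundant LEA protein of dry seeds, rose by 4.41. The dehydrins ERD10, ERD14 and XERO2, which vegetative tissue makes in cold and drought, were not called, with log2 fold changes of -0.17, -0.33 and -0.26, and LEA4-1 fell from 184, 151 and 153 to 64.7, 66.5 and 91.3.

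The listed regulators of this programme moved less. Of 15 with values, 3 were too low to be tested. Of 12 tested seed maturation regulators, 1 rose and 1 fell, and the median was -0.06. The list mixes activators and repressors, so these counts and the median do not describe the activators as a set. ABI3, a B3 factor of seed maturation, went from 13.9, 4.67 and 10.5 normalized counts to 25.9, 33.7 and 23.3, a log2 fold change of 1.51 ± 0.32 with an adjusted p of 0.00042. DOG1, a dormancy gene, fell from 22.3, 25.2 and 28.98 to 11.2, 13.1 and 4.86, a call that was lost without At1++ replicate 3 (adjusted p 0.12 in limma), without Col-0 replicate 3 (0.058) and with a pseudocount of 0.1 (0.15). The list then held 0 falls, and without Col-0 replicate 3 it held 2 rises. PKL, which represses embryo traits after germination, was at 962, 1191 and 1118 in Col-0 and 1201, 1251 and 1054 in At1++, and HSI2, another repressor of the seed programme, changed by -0.35, short of a call. HSFA9, a heat shock factor known from seeds, was at 0.927, 0 and 0 in Col-0 and 12.9, 18.1 and 11.7 in At1++, at least 5.07-fold higher. In whole seedlings, more cells that carry a seed transcript and more of it per cell cannot be told apart.

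Other genes with seed expression stood among the greatest rises without being in these lists. NSP2, a nitrile specifier protein that acts on glucosinolate breakdown in seeds, was at 1.85, 0 and 1.76 in Col-0 and 1058, 1091 and 1061 in At1++, at least 382-fold higher. TIP3;1, the seed form of the tonoplast aquaporins, went from 1.85, 7.48 and 0.878 to 411, 406 and 447. AT2G05580, annotated as a glycine-rich protein, went from 0.927, 0.935 and 1.76 to 858, 1008 and 996. In contrast, the other 19 aquaporin genes tested held 1 rise, which was lost without At1++ replicate 3 or Col-0 replicate 2, and 1 fall, which became 2 without At1++ replicate 1. LTP4, a lipid transfer protein, was at 0 in Col-0 and 33.7, 26.3 and 28.2 in At1++, at least 10.5-fold higher, and LTP3 and LTP6 rose by 1.94 and 1.52. LTP1, LTP2 and LTP5, the more abundant members in leaves, were not called.

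Storage, oil body and LEA genes together took 0.374% ± 0.0108 of the normalized counts in At1++ (SD, n = 3) and 0.0919% ± 0.00344 in Col-0, a ratio of 4.06. The exact permutation test gave p = 0.1 (two-sided), the smallest it can give for 3 libraries against 3. Storage genes alone took 0.243% ± 0.0103 against 0.000432% in Col-0. Seed storage and oil body genes were among those the study picked out on these libraries, so their rise here is not independent evidence. The same counts of 12, 9 and 13 rises were found without replicate 1 of At1++.

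Transcripts of the chloroplast genome were also higher. They took 0.299%, 0.213% and 0.208% of the normalized counts in the At1++ libraries and 0.0339%, 0.0687% and 0.0330% in Col-0. The means were 0.240% ± 0.0516 and 0.0452% ± 0.0204 (SD, n = 3), a ratio of 5.31, with no overlap and an exact permutation p of 0.1, again the smallest possible. Of 92 tested chloroplast-encoded genes 76 rose and 0 fell, with a median of 2.33. By edgeR and DESeq2 72 and 74 rose and 0 fell, and in limma 0 were lower at an unadjusted p below 0.05. Replicate 1 of At1++ was the highest of its 3 for 82 of the 92 genes, and 70 rose without it. The libraries were made from poly(A)-selected mRNA, which retains few organelle transcripts, and how much of them was carried through in each library was not tested.

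The plastid NADH dehydrogenase-like (NDH) complex, which returns electrons to plastoquinone in cyclic electron flow, was followed through 6 of its chloroplast-encoded subunit genes. All 6 rose, with a median of 3.99. They are subunits that the study picked out on these libraries, so the count is not independent evidence, and other subunits were not followed by name. NDHH was at 7.42, 7.48 and 6.15 in Col-0 and 690.3, 546 and 563 in At1++, a log2 fold change of 6.22 ± 0.31 and an adjusted p of 1.9e-14. NDHA went from 18.5, 37.4 and 14.9 to 610.0, 459.9 and 402, with 4.40, and NDHF from 11.1, 7.48 and 5.27 to 159.6, 72.3 and 85.5, with 3.54. At1++ was above Col-0 in every library for each of the 6. The greatest rise of a chloroplast gene was that of ATCG00820, from 2.78, 5.61 and 4.39 to 576, 433 and 549. ATCG00020, one of the most abundant, was at 1068, 3538 and 1001 in Col-0 and 2742, 1411 and 2280.5 in At1++, overlapping ranges, and was not called.

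**Figure D3:**
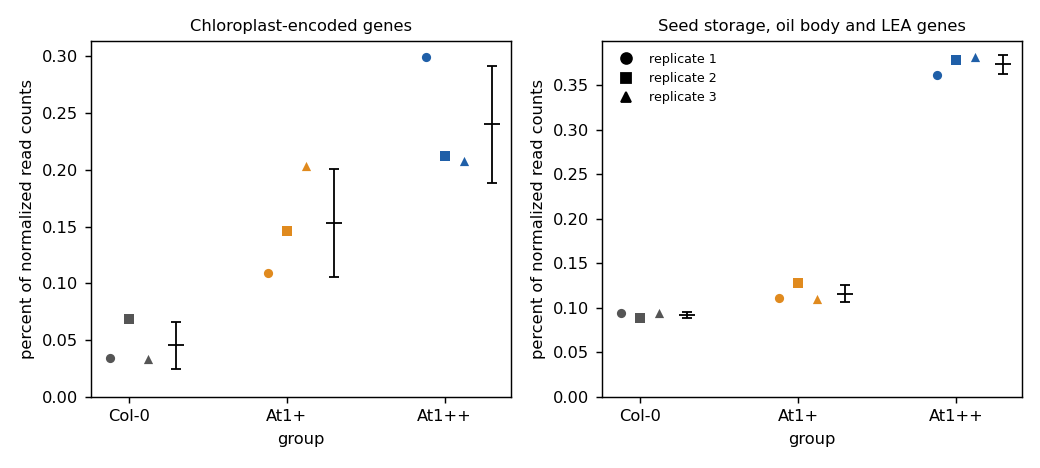
Share of normalized read counts from chloroplast-encoded genes and from seed storage, oil body and LEA genes in each library of Col-0, At1+ and At1++, in percent; points are libraries and bars are the mean ± SD of 3. At1++ averaged 0.240% and 0.374%, and Col-0 0.0452% and 0.0919%.

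Nuclear genes for photosynthesis moved by much less. Of 50 light-harvesting and photosystem genes, 2 rose and 2 fell (4% each, near the 4.06% and 5.02% of all genes). The median was 0.40. Without Col-0 replicate 3, 1 rose. LHCB2.1 and LHCB2.2, close copies of the photosystem II antenna protein, fell from 4984, 5763 and 5197 to 1479.8, 1227 and 1591 and from 4346, 4887 and 4387 to 1885, 1638 and 2126, though reads of such copies may be divided unevenly. Lhca6, a photosystem I antenna protein that links it to the NDH complex, rose by 1.22. In the Calvin cycle 3 of 20 genes rose, none fell, and each of the 20 had a positive estimate, with a median of 0.66. RBCS2B and RBCS3B, small subunits of Rubisco with near-identical sequences, rose by 1.41 and 1.34, and RBCS1A, at 134307, 132027 and 123472 in Col-0 and 221824, 215412 and 263758 in At1++, stayed under the fold minimum. Mitochondrion-encoded genes gave 13 rises and 0 falls among 37 tested, with 24 not called and a median of 0.92. ATMG00090 was among the greatest of these rises, with 16.7, 18.7 and 14.05 in Col-0 and 139.8, 126 and 141 in At1++. Neither edgeR nor DESeq2 called a mitochondrial or Calvin cycle gene lower, and 0 of either list were lower at an unadjusted p below 0.05 in limma. Nuclear genes with a ribosomal protein name had 5 rises among 293 genes (1.71%, below the 4.06% of all genes), with a positive estimate in 251 and a median of 0.28. The set was taken by name and not by location, so it may hold organelle ribosomal proteins and elongation factors besides cytosolic ribosomal proteins. It had 1 rise without Col-0 replicate 2 and 0 with a pseudocount of 10.

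Flavonoid and anthocyanin genes were mostly higher. Of 17 tested in the pathway 10 rose (58.8%, against 4.06% of all genes) and 1 fell, with a median of 1.14. DFR, which makes the first colourless anthocyanin precursor, was at 1.85, 3.74 and 4.39 in Col-0 and 72.5, 73.9 and 60.2 in At1++, a log2 fold change of 4.06 ± 0.45. LDOX, the next enzyme, went from 3.71, 5.61 and 1.76 to 32.8, 34.5 and 27.2, and TT19, the glutathione transferase that carries anthocyanins to the vacuole, from 2.78, 1.87 and 0.878 to 31.9, 42.7 and 33.04. The At1++ libraries lay well above those of Col-0 in each case, although the levels were low. TT8, the bHLH factor that switches on these genes, rose from 1.85, 1.87 and 2.63 to 12.1, 10.7 and 7.77, and MYBL2, a repressor of them, fell from 562, 532 and 537 to 125, 97.7 and 108. TT5, UGT78D1 and UGT78D2 were among the members not called, with log2 fold changes of 0.57, 0.19 and -0.08. These members were named for their level. The 10 rises were not confined to late genes, and early and late members were not compared as sets.

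Genes of the sulfur starvation response showed 7 rises and 0 falls among 11, with a median of 1.73. SULTR1;1, a high-affinity sulfate transporter of the root, was at 1.85, 2.804 and 2.63 in Col-0 and 24.2, 21.4 and 23.3 in At1++. SDI1, a repressor of glucosinolate synthesis that sulfur shortage induces, went from 2.78, 0 and 6.15 to 17.3, 22.2 and 23.3, and LSU1 from 1.85, 0.935 and 4.39 to 17.3, 12.3 and 21.4. GGCT2;1, which breaks down glutathione, was at least 5.29-fold higher. These are low counts, and the groups did not overlap for any of the 4, with At1++ above, as in 25.4% of all genes tested. APR2 and APR3, reductases of sulfate assimilation that are more abundant, were not called, with 0.33 and 0.56. By edgeR and DESeq2 the counts were also 7 and 0, while a minimum mean level of 10 normalized counts left 7 genes, of which 3 rose, with a median of 0.56. In limma 0 genes were lower at an unadjusted p below 0.05.

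Glucosinolate synthesis divided between its branches. Of 15 aliphatic (methionine-derived) pathway genes 4 rose and none fell, with a median of 0.54, and of 15 indole and camalexin genes 4 fell and none rose, with a median of -0.39. At an unadjusted p below 0.05 in limma 1 aliphatic gene was lower and 2 indole genes were higher, and edgeR and DESeq2 called 0 of either. MAM3, which elongates the methionine chain, went from 74.2, 74.8 and 84.3 to 230.4, 209 and 230.3, and BCAT4, at the entry to that step, from 164, 222 and 184 to 445, 395 and 475. CYP79F2 rose by 1.49 ± 0.16. Without At1++ replicate 2 the aliphatic list held 5 rises and 1 fall. MAM1, CYP83A1 and the regulator MYB28 had log2 fold changes of 0.93, 0.92 and 0.64, below the minimum. The groups did not overlap for any of the 3, with At1++ above, as in 25.4% of all genes tested. MAM1 passed it without Col-0 replicate 2 (1.02) and CYP83A1 without At1++ replicate 2 (1.02). On the other branch CYP71A12, a camalexin enzyme, fell from 595, 659 and 749.9 to 89.7, 25.5 and 21.4, a log2 fold change of -4.14, and CYP81F2, which modifies indole glucosinolates in defence, from 287, 367 and 322 to 111, 68.98 and 92.3. CYP79B3, which feeds both indole products, was not called, with 0.30.

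Some cell wall genes, in families taken by gene symbol and not by tissue, were higher. Of 53 expansin and xyloglucan endotransglucosylase (XTH) genes 15 rose (28.3%, against 4.06% of all genes), 1 fell and 37 were not called. Of 6 extensins 4 rose and 1 fell. XTH12 went from 8.34, 9.35 and 6.15 to 72.5, 43.5 and 65.1 and XTH14 from 77.9, 65.4 and 82.5 to 317, 239 and 306. EXT6 went from 16.7, 31.8 and 28.98 to 172, 111 and 126, and EXT13 from 28.7, 74.8 and 54.4 to 264, 176 and 201. These are structural proteins of root hair walls, and replicate 1 of At1++ was the highest of its 3 for each of the 6 extensins, with 4 rises and 1 fall also without it. EXT4, an extensin also expressed in shoots, fell from 10112, 11706 and 11055 to 1708, 1377 and 1388. Class III peroxidases gave 13 rises and 9 falls among 66. AT3G49960 rose from 12.98, 19.6 and 28.1 to 198, 171 and 189, while AT5G64120 fell from 4457, 4953 and 4739.8 to 677, 343 and 349.

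Markers of root tissue moved in the same libraries. Of 6 tested 4 rose and 1 fell, and 3 rose and 2 fell without replicate 1 of At1++. Without Col-0 replicate 1, 4 rose and 2 fell. PRP3, of root hairs, went from 59.3, 97.2 and 91.3 to 323, 232 and 269, COBL9 from 43.6, 36.5 and 43.03 to 84.6, 69.8 and 96.2 and EXPA7 from 41.7, 32.7 and 48.3 to 107, 93.6 and 92.3. COBL9 lay at the fold minimum, and its call was lost without replicate 1 or 3 of At1++ or replicate 2 of Col-0. IRT1, the iron transporter of the root epidermis, fell instead, from 456, 696 and 707 to 217, 161 and 165. NRT2.1, a nitrate transporter of the root, was at or under 3 reads in Col-0. The summed level of the 6 root markers ran from 1045 to 1424 normalized counts in Col-0 and from 793 to 1032 in At1++. Of 5 leaf markers 0 rose and LHCB2.1 fell in limma, edgeR and DESeq2, with 3 higher at an unadjusted p below 0.05. Their summed level ran from 195047 to 207941 in Col-0 and from 287462 to 347399 in At1++. The part of root and shoot proportions in the gene groups above was not tested. None of 4 tested flower markers was called by limma, edgeR or DESeq2, with 1 lower at an unadjusted p below 0.05, and PI was at 12.1, 11.2 and 13.2 in Col-0 and 9.49, 6.57 and 4.86 in At1++.

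Salicylic acid output had the lowest median of the lists. Of 16 tested genes of systemic acquired resistance and salicylic acid response 12 fell (against 5.02% of all genes) and none rose, with a median of -2.84, and edgeR and DESeq2 also gave 12 and 0, with 0 higher at an unadjusted p below 0.05. The study had picked out PR1, PR2, PR5, LURP1, EARLI1, AED1, BDA1 and AIG1 on these libraries, so the count and the median are not independent evidence. PR1 (AT2G14610), the classical marker of the salicylic acid response, was at 1771, 1584 and 1754 in Col-0 and 16.4, 0.821 and 1.94 in At1++. The log2 fold change was -8.55 ± 0.45 with an adjusted p of 6.9e-14, and the other 2 At1++ libraries were at or under 3 reads. PR2, a beta-1,3-glucanase, fell from 312, 338 and 392 to 7.77, 2.46 and 0.972. At1++ was far below Col-0 for both, with its replicate 1 above the other 2.

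SAG13, a dehydrogenase gene of senescence and cell death, fell from 143, 165 and 140.5 to 3.45, 0.821 and 0. AIG1, a GTPase gene induced by bacterial avirulence genes, fell from 521, 588 and 574 to 13.8, 4.11 and 5.83, and its neighbour AT1G33950 fell from 18.5, 20.6 and 26.3 to 0 in every library, at least 7.48-fold lower. EARLI1, a lipid transfer protein related to the AZI1 gene of systemic immunity, fell from 2607, 3290.1 and 2887 to 129, 57.5 and 67.04, and AT4G12490 beside it in the same family from 1219, 1323 and 1294 to 24.2, 0 and 0.972. BDA1, an ankyrin protein of salicylic acid signalling, went from 156, 143 and 152 to 3.45, 5.75 and 0.972. Each of these was lower in every At1++ library than in any of Col-0. GRX480, a glutaredoxin of the salicylic acid response, was not called, with a log2 fold change of -0.47.

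**Figure D4:**
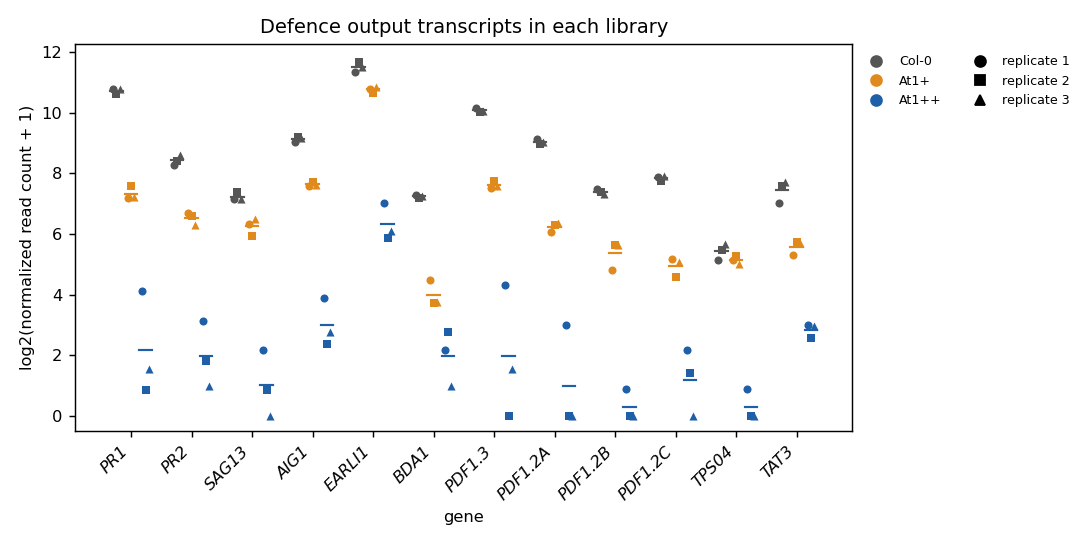
Normalized read counts of 12 defence output genes in each library, as log2(count + 1); points are libraries, with a shape for each replicate, and bars are means of 3. Col-0 is on top, At1+ lies between or near it, and At1++ is lowest, its replicate 1 often the highest of its 3, as for PR1 with 16.4, 0.821 and 1.94 normalized counts.

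Upstream of that output the fall was narrower. PAD4 and SARD1 of this list were also picked out by the study on these libraries. Of 24 synthesis and signalling genes of the salicylic acid pathway 10 fell and 0 rose, with a median of -0.59. CBP60G, a calmodulin-binding activator of salicylic acid synthesis, went from 477, 509 and 549 to 132, 90.3 and 88.4, a log2 fold change of -2.32 ± 0.12, and PBS3, which conjugates isochorismate to glutamate on the way to salicylic acid, from 60.3, 83.2 and 66.7 to 18.98, 10.7 and 13.6. WRKY70 went from 788, 749.6 and 850.0 to 242, 205 and 221. DMR6 and DLO1, hydroxylases that turn salicylic acid over, fell too, from 840.0, 951 and 1011 to 307, 263 and 259 and from 117, 122 and 139 to 23.3, 16.4 and 14.6. The receptors NPR1, NPR3 and NPR4 and the factor TGA1 were not called, with log2 fold changes of -0.30, -0.06, -0.28 and -0.22.

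Cell surface receptors showed a similar split. The study had picked out RLP23, CRK7, CRK13 and WRKY40, among others, on these libraries, so the counts here are not independent evidence. Of 26 receptor and early signalling genes 12 fell and 0 rose, with a median of -0.64. WAK3, a wall-associated kinase, fell from 37.1, 37.4 and 40.4 to 0, 0 and 0.972, at least 13.1-fold. CRK7 and CRK6, cysteine-rich receptor kinases, fell from 27.8, 31.8 and 33.4 to 0, 0.821 and 0 and from 31.5, 26.2 and 32.5 to 1.73, 0 and 1.94. FRK1, a kinase gene used as a readout of immunity triggered by flagellin, went from 23.2, 36.5 and 36.00 to 5.18, 1.64 and 2.91. BAK1, MPK3 and MPK6, relays shared by many receptors, had log2 fold changes of -0.23, -0.31 and -0.07 and no call. Among WRKY factors 17 of 66 fell and 0 rose, with a median of -0.55. WRKY46 went from 66.8, 75.7 and 74.6 to 19.8, 6.57 and 9.72, and WRKY8 from 25.03, 34.6 and 30.7 to 7.77, 4.93 and 0.972. At an unadjusted p below 0.05, 0 salicylic acid synthesis genes, 2 receptor genes and 0 WRKY genes were higher. DESeq2 called 0 higher in the 3 lists and edgeR called 1 WRKY gene higher, as did limma without At1++ replicate 3.

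The same windows before the gene start were searched on both strands for the W-box core TTGAC, the element that WRKY factors read. TTGAC was present in 23 of 26 receptor gene windows (88.5%), in 14 of 24 of salicylic acid synthesis and signalling genes (58.3%) and in 34 of 66 of WRKY genes (51.5%), against 45.4% of all nuclear genes tested. The windows of salicylic acid output genes were not counted, and members that fell were not set apart from the others. These shares describe the lists and not the falls, and a link between the element and the falls was not tested. Letters outside these windows were not searched.

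Jasmonate and ethylene output went both ways. Of 22 tested genes 11 fell and 2 rose, with a median of -0.75. The study had picked out ERF2, TAT3, ORA59, PDF1.2A, PDF1.2B, PR4 and TPS04 on these libraries, so the count of falls is not independent evidence. The plant defensin genes fell furthest. PDF1.3 was at 1128, 1029 and 1075 in Col-0 and 18.98, 0 and 1.94 in At1++, with a log2 fold change of -8.11 ± 0.66, and replicate 1 of At1++ was again the highest of its group. PDF1.2A fell from 558, 505 and 519 to 6.90, 0 and 0, PDF1.2B from 178, 165 and 157 to 0.863, 0 and 0, at least 57.2-fold, and PDF1.2C from 232, 214 and 239 to 3.45, 1.64 and 0. These copies are nearly identical, so the level of each is uncertain and their common fall is the measurement. TPS04, which makes the volatile geranyllinalool, fell from 34.3, 43.00 and 50.05 to 0.863, 0 and 0, and TAT3, a tyrosine aminotransferase gene of the wound response, from 129, 189 and 211 to 6.90, 4.93 and 6.80.

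The vegetative storage protein genes rose. VSP1 went from 87.1, 88.8 and 99.2 to 247, 245 and 306 and VSP2 from 95.5, 79.4 and 79.9 to 228, 256 and 313, with no overlap. VSP1 and VSP2 were the 2 rises among the 22 tested output genes. They belong to the MYC branch of jasmonate output and the defensins to the branch shared with ethylene. Whether the list divided by branch was not tested, and the wound response gene TAT3 fell. In jasmonate synthesis 3 of 11 genes fell and none rose, as by edgeR and DESeq2, with 0 higher at an unadjusted p below 0.05. AOC1 and AOC2, allene oxide cyclases, fell from 539.6, 649 and 634 to 180.3, 161 and 190.4 and from 1554, 1773 and 1890.5 to 839, 757 and 934, and LOX4 from 117, 143 and 145 to 41.4, 27.1 and 28.2. AOC2 lay near the fold minimum and was not called without At1++ replicate 2 or Col-0 replicate 3. LOX2, the main leaf lipoxygenase of the pathway, at 5467, 7591 and 6878 in Col-0 and 4432, 3897 and 4357 in At1++, and AOS, with a log2 fold change of -0.11, were not called.

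Clock genes were lower at the time of harvest. Of 25 tested 14 fell (against 5.02% of all genes) and 0 rose, with a median of -1.25, and 0 were higher by edgeR, by DESeq2 or at an unadjusted p below 0.05. CCA1, the morning MYB factor, went from 56.6, 39.3 and 52.7 to 10.4, 9.85 and 5.83, a log2 fold change of -2.40 ± 0.35. PRR7, a pseudo-response regulator of the day, went from 1184, 1196 and 1242 to 284, 241 and 175, with -2.39. LNK2, a coactivator that acts with the morning factors, went from 275, 289.8 and 292 to 69.9, 49.3 and 39.8, and RVE7 from 254, 228 and 232 to 48.3, 42.7 and 45.7. The evening genes TOC1, LUX and ELF3 stayed under the fold minimum, with log2 fold changes of -0.54, -0.41 and -0.24. They were named as uncalled members of high level and do not stand for all evening genes, which were not compared as a set. GI, another evening gene of the list, is given by the study as lower in At1++. The study had picked out CCA1, RVE7 and GI on these libraries, so the count of falls is not independent evidence. The hour at which each group was frozen is not given in the sources used here, so a difference in clock phase and a difference in harvest hour cannot be told apart.

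The evening element AATATCT, through which morning MYB factors act, is shown in capitals in the window before PRR9, a regulator that fell from 17.62, 25.2 and 16.7 to 2.59, 7.39 and 1.94, at chr2:19232357-19232606 on the plus strand of TAIR10.1.
PRR9: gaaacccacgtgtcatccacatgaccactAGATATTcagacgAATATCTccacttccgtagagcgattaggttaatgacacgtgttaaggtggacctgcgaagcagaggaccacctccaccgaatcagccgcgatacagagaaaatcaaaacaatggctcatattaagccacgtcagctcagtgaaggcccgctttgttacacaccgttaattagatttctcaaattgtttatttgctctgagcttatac
The window held 2 matches, and the element was present in 13 of 25 clock gene windows (52%) and in 7 of the 14 that fell (50%), against 10.11% of all nuclear genes tested. ACGTG was in 9 of the 14 (64.3%).

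**Figure D5:**
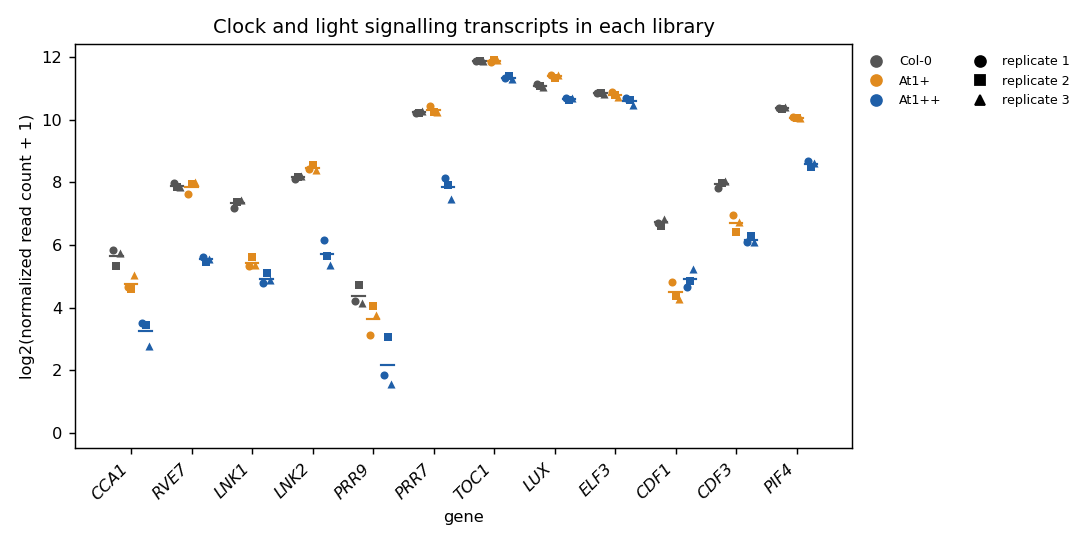
Normalized read counts of 12 clock and light signalling genes in each library, as log2(count + 1); points are libraries, with a shape for each replicate, and bars are means of 3. PRR7 is at 284, 241 and 175 in At1++ and 1184, 1196 and 1242 in Col-0, while TOC1, LUX and ELF3 have log2 fold changes of -0.54, -0.41 and -0.24.

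Genes of light signalling and flowering moved in the same direction, with 9 falls and 0 rises among 16 genes by limma, edgeR and DESeq2. In limma 1 gene was higher at an unadjusted p below 0.05, and the median was -1.27. A link between these falls and those of the clock genes was not tested. FLC, HYH and STO were picked out by the study on these libraries. PIF4, a growth-promoting factor of the dark and of warmth, went from 1327, 1291 and 1362 to 414, 361 and 391. CDF1 and CDF3, which hold back flowering, went from 104, 97.2 and 114 to 24.2, 27.9 and 36.9 and from 224, 249.6 and 265 to 68.2, 77.2 and 68.02, and FLC from 68.6, 86.9 and 79.9 to 21.6, 26.3 and 25.3. CO, the flowering switch that CDF factors repress, was at 16.7, 20.6 and 16.7 in Col-0 and 37.1, 32.03 and 30.1 in At1++, a log2 fold change of 0.85 with an adjusted p of 0.027 that did not reach the fold minimum. HY5, the main factor of seedling greening, was not called, with -0.83, while HYH, its homologue, fell from 85.3, 79.4 and 103 to 21.6, 32.03 and 31.1.

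Abiotic stress and nutrient genes showed mixed changes. Some, DIN11 among them, were picked out by the study on these libraries. In cold and drought response 5 of 14 fell and 1 rose. RD29A, a shared marker of both stresses, went from 2572, 2733 and 2675 to 993, 856 and 857, and CBF1, a cold regulator, from 9.27, 11.2 and 10.5 to 2.59, 3.28 and 1.94. COR15A, a chloroplast protein that protects membranes in freezing, rose from 2904, 2660.1 and 2813 to 5968, 5959 and 7090.2. It is a CBF target, and its direction was opposite to that of the others called in the list. Of 8 genes of sugar starvation and darkness 3 fell and 0 rose by limma, edgeR and DESeq2, with 0 higher at an unadjusted p below 0.05. The falls were those of DIN11 from 991, 923 and 1112 to 93.2, 50.1 and 38.9, BGLU30 from 470.1, 485 and 507 to 42.3, 18.1 and 16.5 and BBX16 from 16.7, 13.1 and 21.1 to 1.73, 1.64 and 3.89. In iron homeostasis IRT1, FRO2 and BHLH101, of the uptake response, had log2 fold changes of -1.76, -1.61 and -2.16, and FER1 and FER3, ferritins that store iron, rose from 1178, 1105 and 1134 to 3091, 3268 and 3320.2 and from 593, 633 and 626 to 1371, 1398 and 1464. PHT1;4 and PAP17 were the 2 phosphate starvation genes of 11 that rose. PHT1;4, with a log2 fold change of 1.01, was not called by edgeR or without replicate 1 of At1++ or of Col-0. Without either of these libraries 1 phosphate gene fell. Heat shock genes gave 4 rises and 1 fall among 21, with HSFA7A down from 514, 389.8 and 439.9 to 200.2, 186 and 187 and HSP17.6A up from 8.34, 8.41 and 3.51 to 31.9, 44.3 and 42.8.

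Glutathione transferases, 5 of which rose and 8 fell among 39, included abundant genes in both directions. GSTF6 and GSTF7, neighbouring and near-identical genes of the defence response, fell from 3891, 4054 and 4061 to 739, 497 and 507 and from 4518, 4699.6 and 4845 to 780.0, 462 and 512. GSTU20 rose from 545, 637 and 645 to 2361, 2405 and 2836, and GSTU25 from 73.2, 90.7 and 99.2 to 424, 399.9 and 462. Auxin response genes of the SAUR and IAA families had 5 rises (5.15%) and 9 falls (9.28%) among 97, against 4.06% and 5.02% of all genes. The counts turned on the processing, with 3 and 6 without At1++ replicate 3, 3 and 7 by edgeR, 4 and 5 by DESeq2, and 1 and 1 with a pseudocount of 10.

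Set directly against At1+, the weaker line of the same transgene, At1++ was higher in 1252 genes (5.63% of those tested) and lower in 1208 (5.44%). The seed genes were again among the greatest rises. CRU3 was at 581, 1012 and 659 in At1+, and At1++ was higher by 4.03 on the log2 scale, with an adjusted p of 8.1e-14 in limma. SESA2 was at 115, 237 and 133, with 4.02. All 12 storage genes that rose against Col-0 were also higher than in At1+, as were 9 oil body and 13 LEA genes. PR1 was at 146, 189.6 and 147 in At1+ and differed by -5.15, and PDF1.3 at 180.0, 212 and 189.7, with a difference of -5.64.

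For some groups the lines were further apart than At1++ and Col-0, a difference that was not itself tested. Of 15 aliphatic glucosinolate genes 13 were higher in At1++ than in At1+, beside 4 against Col-0, with a median difference of 2.20. BCAT4 was at 34.1, 55.1 and 39.7 in At1+, against 445, 395 and 475 in At1++, a difference of 3.35. Each of the 8 sugar starvation genes was lower in At1++ than in At1+, with a median of -1.66. ASN1, an asparagine synthetase of carbon shortage, was at 39972, 33936 and 35775 in At1+ and 11634, 9379.8 and 10271 in At1++. DFR, at 0, 8.82 and 2.90 in At1+, differed by 4.37, and 10 flavonoid genes were higher and 1 was lower in At1++. Chloroplast-encoded genes gave 44 of 92 higher, with NDHH at 112, 204 and 318 in At1+, and their share of counts was 0.240% ± 0.0516 in At1++ against 0.153% ± 0.0475 in At1+ (SD, n = 3, exact permutation p = 0.1). AtIPCS1 itself was the single sphingolipid gene higher in At1++ than in At1+, and 1 was lower.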

How the data were processed

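Normalized read counts (signal) per gene were deposited by the authors, who used Trimmomatic for trimming, STAR for alignment under an Araport annotation, HTSeq for counting and DESeq2 size factors for scaling; versions are not given in the sources used here. Libraries were made with a TruSeq stranded mRNA kit. Dividing by each library's smallest step returned whole reads for 100% of values within 0.01, and edgeR 4.0.16 and DESeq2 1.42.0 were run on these as alternatives. The main test was limma 3.58.1 in R 4.3.3 on log2(value + 1) over 22222 of 25263 genes, with 20 libraries sharing 1 estimate of spread and Benjamini-Hochberg adjustment. A pair of At3+ libraries with identical values was counted as 1. Genes were named by a rule: the 3 AtIPCS genes, all members of lists of up to 8 and otherwise up to 6 called members per direction with the greatest change and 4 uncalled ones of highest level, and the 10 greatest rises and falls against Col-0 and 5 against At1+ among non-overlapping genes with a mean of at least 20. Members and lists were chosen with earlier results of these data known. Scripts were tested on simulated data. Names and sequences come from RefSeq TAIR10.1, which matched 25090 IDs. Alternatives covered filters, pseudocounts, scaling, libraries left out and a replicate block.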

Additional observations from a re-analysis of the deposited data

Results flagged for a closer look

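For 8 named genes the 2 AtIPCS1 lines were called in opposite directions against the same Col-0 libraries, and At1++ and At1+ differed when compared directly in limma. The direct differences, At1++ minus At1+ on the log2 scale, were positive for CYP79F2 (3.53), BCAT4 (3.35) and FMOGS-OX3 (2.90) of aliphatic glucosinolate synthesis, and for COR15A (2.71), a cold response gene. They were negative for AT2G17740 (-5.67), a gene of the cysteine/histidine-rich C1 domain family, for the kinase gene FRK1 (-4.63), and for the peroxidase genes AT5G39580 (-3.98) and AT1G14550 (-3.07). Against Col-0, BCAT4 had a log2 fold change of 1.21 in At1++ and -2.14 in At1+, and AT5G39580 had -2.12 and 1.86. No groups of 4 or more libraries entered the comparison, so single libraries were not tested against their group.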

How the results depend on the processing

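The counts of genes called in At1++ against Col-0 were within 1.5 times of 903 higher and 1116 lower under edgeR (790 and 1056), DESeq2 (819 and 1062), both other filters on low values, a pseudocount of 0.1, size factors from nuclear genes and the use of the compared libraries alone. They moved further with a pseudocount of 10 (466 higher and 706 lower), with no minimum on the fold change (4394 and 4215) and with a minimum of 2 on the log2 scale (316 and 359). Against At1+ the same 3 settings gave 588 higher and 782 lower, 5493 and 5370, and 264 and 379, beside 1252 and 1208. Leaving out 1 library at a time gave 810 to 893 genes higher and 1048 to 1137 lower than in Col-0, and 1155 to 1277 higher and 1134 to 1244 lower than in At1+. The share difference of storage, oil body and LEA genes was 0.282 percentage points and 0.306 without the 10 most abundant genes. Leaving out libraries took the log2 fold change of AtIPCS3 from -0.31 (without At1++ replicate 1) to 1.09, and that of AtIPCS2 from -0.19 to 0.038. AtIPCS3 was called higher without At1++ replicate 3 (1.09) and by edgeR (1.25), and AtIPCS2 under no setting. Of 203 called named genes other than AtIPCS1, 162 kept their call under every setting that tested them and 0 reversed. The pseudocount of 10 ended 40 of these calls, ABI3, CBF1, TT8 and NRT2.1 among them, DESeq2 ended 5, edgeR ended 1, and leaving out 1 library ended 3 to 11. With that pseudocount the mitochondrial list held 7 rises in place of 13, and the cold and drought list 3 falls in place of 5. Among genes with a mean of at least 10 the heat shock list held 1 rise of 16 genes and the cold and drought list 3 falls of 11. The replicate numbers were not treated as pairs in the main test. Deviations of same-numbered At1++ and Col-0 libraries correlated at -0.201, -0.096 and -0.0976, and those of At1++ and At1+ at 0.0939, 0.0591 and 0.0789. With 3 libraries in a group, these values cannot decide whether the numbers pair the libraries. With the replicate number as a block the counts were 894 higher and 1105 lower. The fold changes of low genes depend on the pseudocount, and counts near 3 reads per library limit what can be said of them.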
